A study of Rattus norvegicus with 62 samples.

Results

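The genes that move calcium in heart muscle cells were followed in cardiac muscle of male Wistar rats given the insulin sensitiser rosiglitazone, 10 in number: Ryr2, Atp2a2, Pln, Slc8a1, Casq2, Trdn, Jph2, Hrc, Camk2d and Atp2b1. They were taken as every probe set, the group of short probes that reports 1 transcript, whose array annotation gives 1 of these genes and no other. That rule found 26 of the 31042 probe sets on the array, with at least 1 for each of the 10 genes of 14217 that the annotation names singly, and no probe set annotated to several genes named one of them. Of the 26, 24 passed the filter on low signals that left 18625 probe sets for testing. The Trdn probe set 1371138_at, with a mean level of 4.80, and the Camk2d probe set 1368833_at, with 4.36, lay below the filter at a log2 level of 5.03 and were not tested.

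The rats received vehicle, 10 or 80 mg/kg/day of rosiglitazone by mouth once daily for 14 days, and heart tissue was taken 6, 24, 168 or 336 h after the final treatment. Each of the 62 samples was read on 1 array. The vehicle groups held 4, 6, 5 and 5 samples at 6, 24, 168 and 336 h, the 10 mg/kg groups 5, 5, 5 and 6, and the 80 mg/kg groups 5, 5, 6 and 5. Whether every sample is a rat of its own is not in the labels, so p-values cover only the spread between these samples, which may be technical. Vehicle rats were sampled at every time, so each dose was set against vehicle of the same time, and both doses share those vehicle arrays.

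Each heartbeat begins when calcium entering the cell opens the ryanodine receptor (Ryr2), which releases the calcium stored in the sarcoplasmic reticulum. The store is held by calsequestrin (Casq2) and the histidine rich calcium binding protein (Hrc), triadin (Trdn) ties calsequestrin to the release channel, and junctophilin (Jph2) holds the store close to the surface membrane. The muscle relaxes when the pump SERCA2 (Atp2a2) returns calcium to the store, restrained by phospholamban (Pln), while the sodium-calcium exchanger (Slc8a1) and the plasma membrane pump (Atp2b1) export the rest. The calcium/calmodulin kinase subunit delta (Camk2d) adjusts release and uptake by phosphorylation. Rosiglitazone activates the nuclear receptor PPARγ.

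All levels below are log2 signals after quantile normalization, and a difference of 1 is a doubling. The 8 cardiac myocyte marker genes on the array were all above the filter, at a median percentile of 99.9, and their summed signal ran from 95940 to 106100 over the arrays. Atrial markers ran from 609.7 to 24620, and 10 arrays had the atrial light chain Myl7 above a level of 9: 1 vehicle, 4 of 10 mg/kg and 2 of 80 mg/kg at 6 h, and 3 of 80 mg/kg at 24 h. Of the 5 adipocyte markers on the array, Adipoq, Plin1 and Lep were below the filter and 2 above it, with a summed signal of 78.33 to 691.8. Of the 5 skeletal muscle markers, Myh4, Myh2 and Tnnt3 were below it and 2 above, with a summed signal of 2972 to 14920. The arrays fell into 3 clusters of 21, 21 and 20 by their first 2 principal components, and the third held those with a larger 3' minus 5' difference of the hexokinase control, 2.09 to 6.08 against 1.38 to 2.45 in the others. That difference is a sign of RNA integrity or labelling. The second cluster took in all 16 of the 336 h arrays, so this time and that cluster are largely the same arrays. In tissue, fewer cells of a type and less RNA per cell cannot be told apart.

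None of the 24 tested probe sets changed with rosiglitazone at an adjusted p under 0.05 in limma, at either dose or any time, nor did any in a direct comparison of the doses or in the mean over the 4 times. Among all probe sets 0.0537% (6 h), 0.14% (24 h), 0.0537% (168 h) and 0.29% (336 h) were called for 80 mg/kg, and 0% at each time for 10 mg/kg. For the mean over the times the shares were 0.478% at 80 mg/kg and 0.0107% at 10 mg/kg, and for 80 against 10 mg/kg they were 0%, 0.0107%, 0.0376% and 0.102% at the 4 times in order. At an unadjusted p under 0.05 the members numbered 1, 3, 1 and 0 for 80 mg/kg at the 4 times, against 6.65%, 11.1%, 5.44% and 6.97% of all probe sets. They numbered 0, 2, 0 and 0 for 10 mg/kg, against 6.42%, 5.84%, 3.86% and 3.63%, and 2, 1, 2 and 1 for 80 against 10 mg/kg, against 3.68%, 3.74%, 4.73% and 3.59%. In the mean over the times 1 member passed that limit at each dose, against 9.54% of all probe sets at 80 mg/kg and 4.77% at 10 mg/kg. None of the 24 tested probe sets had groups that did not overlap in any of the 12 pairwise comparisons, where the shares among all probe sets were 1.68%, 1.08%, 0.612% and 2.52% for 80 mg/kg at the 4 times in order, 1.15%, 0.43%, 0.403% and 0.666% for 10 mg/kg, and 0.569%, 0.424%, 0.365% and 0.773% for 80 against 10 mg/kg. Of the untested probe sets, Trdn 1371138_at did not overlap at 168 h, with vehicle at 4.255 to 4.888 and 10 mg/kg at 4.921 to 5.455, around the filter level.

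**Figure D1:**
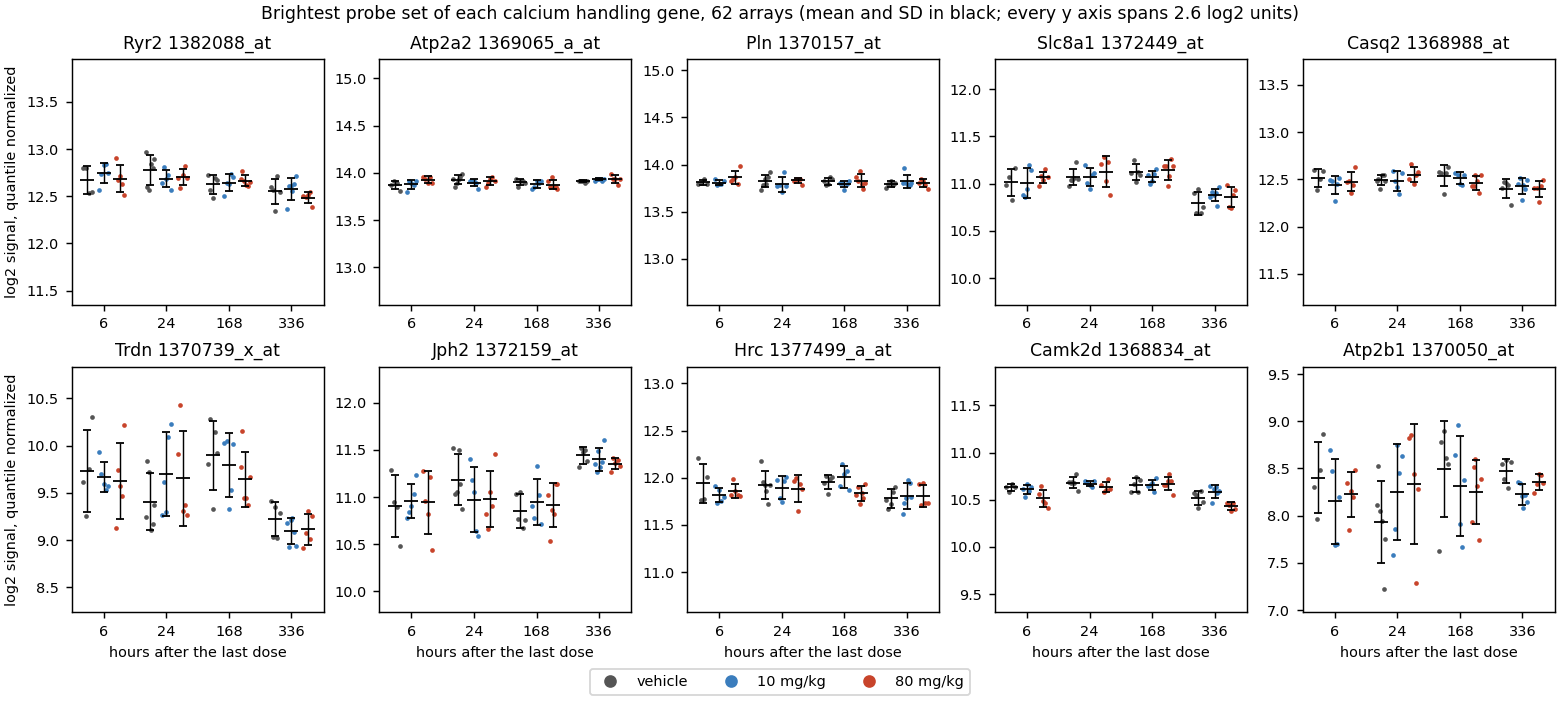
Log2 level of the brightest probe set of each of the 10 genes on every array, by hours after the last dose (x axis) and dose (colour), with group mean and SD in black. The dose groups overlap at every time, and the spread differs between genes: the SERCA2 probe set spans 0.188 over the 62 arrays and the Atp2b1 probe set 1.74.

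The median member difference for 80 mg/kg against vehicle was -0.06 at 6 h, 0.14 at 24 h, -0.033 at 168 h and -0.062 at 336 h, where the median over all probe sets lay between -0.022 and 0.01. At 24 h 18 of the 24 member probe sets were above vehicle, against 45.6% of all probe sets. Several of these report the same gene. Of the brightest probe sets of the 10 genes, 5 were above vehicle and 5 below, with a median of -0.004. With each array scaled to a common median, the 24 h medians were -0.001 for the 24 member probe sets and -0.171 for all probe sets, both lower. With cluster as a block they were 0.035 and -0.004. For 10 mg/kg the member medians were 0.002, 0.056, -0.024 and -0.034. Averaged over the times, 10 member probe sets were above vehicle and 14 below at 80 mg/kg, with a median of -0.019 and a range from -0.12 to 0.12. No member was called for an effect of 80 mg/kg that differs between times in limma's F test (0 called, 2 at an unadjusted p under 0.05; 0.0215% of all probe sets called); there 7.3% of all probe sets passed the unadjusted limit. The same test for 10 mg/kg called no member (0 called, 0 unadjusted; 0% and 4.7% of all probe sets).

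**Figure D2:**
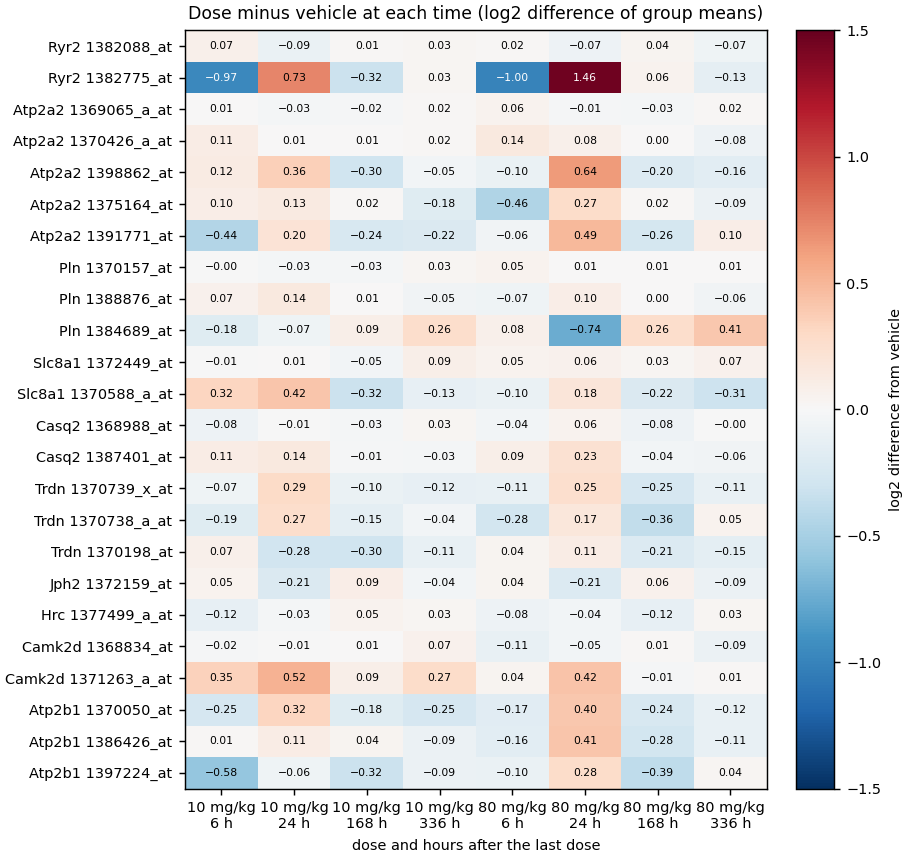
Log2 difference from vehicle for the 24 tested probe sets (rows), for each dose and time (columns), with blue below vehicle and red above. The 80 mg/kg column at 24 h holds the largest positive value, 1.46 for Ryr2 1382775_at, whose row is -1.004 at 6 h; no difference in the figure passed the adjusted threshold.

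Of the release channel, the bright probe set Ryr2 1382088_at varied little. At 24 h the 6 vehicle arrays ran from 12.57 to 12.97 with a median of 12.82, the 10 mg/kg arrays read 12.64, 12.81, 12.68, 12.73 and 12.57, and the 80 mg/kg arrays 12.69, 12.59, 12.73, 12.82 and 12.70. Every treated array lay within the vehicle range. Averaged over the times, 80 mg/kg differed from vehicle by -0.022 (95% interval -0.098 to 0.055) and 10 mg/kg by 0.006 (-0.071 to 0.082).

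The other Ryr2 probe set, 1382775_at, gave the largest differences of any member. At 24 h its vehicle arrays ran from 8.003 to 8.54 except for replicate 2 at 10.56, while those of 80 mg/kg read 10.29, 10.19, 10.54, 8.12 and 11.32. The difference was 1.46 (95% interval 0.32 to 2.603, limma unadjusted p 0.0132, adjusted p 0.343), with 4 of 5 treated arrays above the vehicle mean and the groups overlapping. At 6 h the sign was opposite, -1.004 for 80 mg/kg (adjusted p 0.815) and -0.97 for 10 mg/kg (adjusted p 0.849).

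These values moved with the array clusters. Over the 62 arrays the level of 1382775_at ran from 10.06 to 10.56 in the first cluster, from 10.02 to 11.32 in the second and from 7.31 to 8.90 in the third, with no overlap between the third and the others. The third cluster held 5 of the 6 vehicle arrays but 1 of the 5 arrays of 80 mg/kg at 24 h. Within it the 80 mg/kg array lay 0.121 below the mean of the 5 vehicle arrays, and within the first cluster the 2 arrays of 80 mg/kg lay 0.33 below the 1 vehicle array. With cluster as a block the 24 h difference was -0.014 (adjusted p 0.994), and with the hexokinase difference as a covariate 0.39 (adjusted p 0.948). Over all arrays this probe set correlated with the hexokinase difference at r = -0.76, against 0.40 for 1382088_at; the points share their arrays, and the clusters were drawn from the same values.

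**Figure D3:**
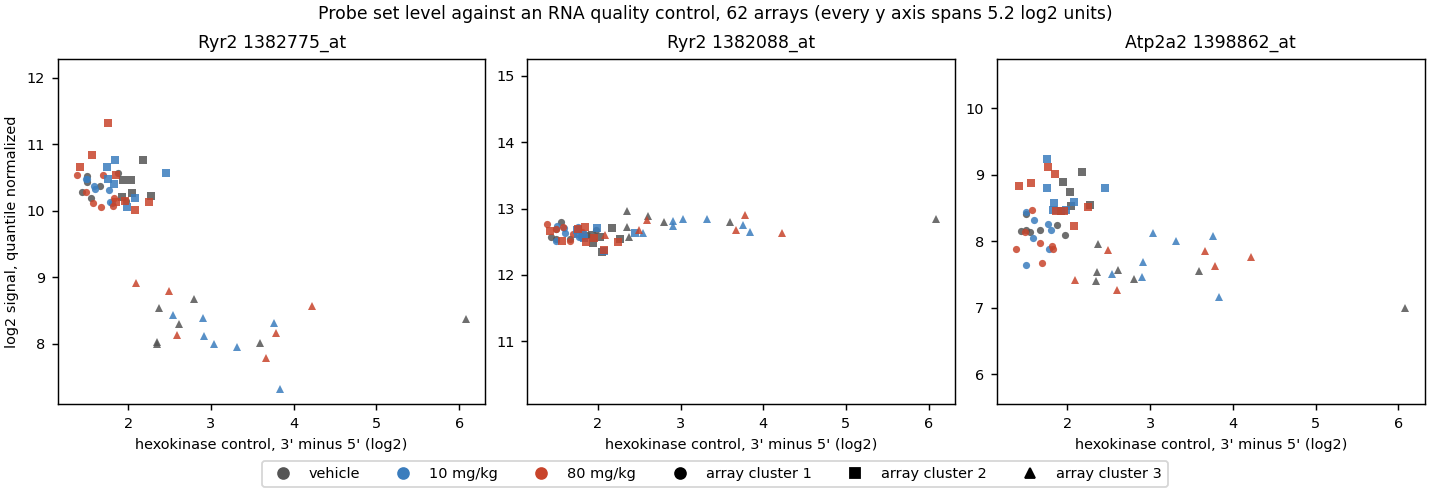
Log2 level of 3 probe sets (y axes, each spanning 5.2 units) against the 3' minus 5' hexokinase difference (x axis, log2) for the 62 arrays, coloured by dose and marked by array cluster. Ryr2 1382775_at separates into a group at 8.90 or below, all of the third cluster, and a group at 10.02 or above, while Ryr2 1382088_at stays between 12.34 and 12.97.

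Other probe sets also moved with the hexokinase difference over the 62 arrays: Slc8a1 1370588_a_at (r = -0.69), Atp2b1 1370050_at (r = -0.59) and Atp2a2 1398862_at (r = -0.54). For the brightest probe sets of Slc8a1 and Atp2a2 r was 0.17 and 0.38. The part of RNA integrity in these values was not tested.

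Of the proteins around the release channel, Casq2 1368988_at read between 12.23 and 12.66 on every array, and its mean difference from vehicle was -0.016 (-0.079 to 0.047) at 80 mg/kg. The second Casq2 probe set, 1387401_at, gave 0.055 (-0.073 to 0.18). Hrc 1377499_a_at lay 0.054 below vehicle (-0.134 to 0.026) at 80 mg/kg and 0.019 below at 10 mg/kg (-0.1 to 0.061). At 168 h its 6 arrays of 80 mg/kg ran from 11.72 to 11.93 with a median of 11.83 and its 10 mg/kg arrays from 11.87 to 12.15, overlapping (difference -0.18, unadjusted p 0.0267, adjusted p 1).

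Trdn 1370739_x_at, whose suffix marks probes that may also match other transcripts, differed from vehicle by -0.056 (-0.26 to 0.148) at 80 mg/kg, and Trdn 1370738_a_at by -0.104 (-0.33 to 0.121). Their levels moved together over the arrays (r = 0.88 within groups, 62 arrays, which share labelling and scale). The dimmer Trdn 1370198_at gave -0.05 (-0.248 to 0.147). Jph2 1372159_at gave -0.048 (-0.198 to 0.103) at 80 mg/kg and -0.026 (-0.177 to 0.124) at 10 mg/kg.

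Of the uptake pump and its inhibitor, Atp2a2 1369065_a_at sat at the 99.98th percentile of all levels with a within-group SD of 0.039. At 336 h the vehicle arrays read 13.92, 13.92, 13.92, 13.89 and 13.92, and the 80 mg/kg arrays 13.98, 13.94, 13.94, 13.87 and 13.94. The ranges overlap, and averaged over the times 80 mg/kg differed by 0.009 (-0.032 to 0.049), a ratio between 0.978 and 1.035. Pln 1370157_at, with a within-group SD of 0.053, differed by 0.018 (-0.027 to 0.064) at 80 mg/kg and by -0.009 (-0.055 to 0.037) at 10 mg/kg.

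These 2 probe sets read 11500 to 17210 as deposited, where the brightest probe set of an array read 17787 to 21429, and the brightest 1% of probe sets had a median within-group SD of 0.09 against 0.30 for all tested. Quantile normalization gives every array the same set of values, so levels near the top move in steps of rank. Atp2a2 1369065_a_at spanned a ratio of 1.389 over the arrays as deposited, differences of scale between arrays included, and 0.188 log2 units after normalization. How far this compresses changes near the top was not tested. Of the dimmer probe sets, Atp2a2 1370426_a_at, at a level of 10.87, differed by 0.036 (-0.033 to 0.105) at 80 mg/kg, and Pln 1388876_at, at a level of 13.23, by -0.005 (-0.065 to 0.056). The dim Pln 1384689_at had a wide interval, -0.40 to 0.41.

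Atp2a2 1398862_at stood 0.64 above vehicle at 24 h and did not pass the threshold (unadjusted p 0.0209, adjusted p 0.374). The vehicle arrays ran from 6.997 to 8.24 with a median of 7.55, and the 80 mg/kg arrays read 8.14, 7.88, 9.02, 7.26 and 9.12. Blocked by array cluster the difference was -0.101 (adjusted p 0.903).

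Of the calcium exporters, Slc8a1 1372449_at differed from vehicle by 0.051 (-0.023 to 0.125) at 80 mg/kg and 0.009 (-0.065 to 0.084) at 10 mg/kg. Atp2b1 1386426_at gave the smallest p of any member against vehicle. At 24 h the vehicle arrays read 7.30, 6.74, 7.03, 6.82, 7.20 and 6.85 and the 80 mg/kg arrays 7.47, 7.33, 7.27, 7.26 and 7.67. All 5 treated arrays lay above the vehicle mean and 1 vehicle array reached into their range. The difference was 0.41 (95% interval 0.157 to 0.67, unadjusted p 0.00202, adjusted p 0.209).

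At 168 h that probe set stood the other way, with 80 mg/kg at 6.64 to 7.13 and vehicle at 6.78 to 7.68, a difference of -0.28 (unadjusted p 0.0336, adjusted p 0.883). The test that its effect differs between times gave an unadjusted p of 0.00185 and an adjusted p of 0.348. The other Atp2b1 probe sets gave 0.40 (1370050_at) and 0.28 (1397224_at) at 24 h and -0.24 and -0.39 at 168 h, the same signs, and 0 of these passed an unadjusted p of 0.05.

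Of the kinase, Camk2d 1368834_at was the member whose mean over the times lay furthest from 0 in units of its error at 80 mg/kg, -0.059 (-0.108 to -0.009, unadjusted p 0.0217, adjusted p 0.403). At 336 h the 80 mg/kg arrays read 10.46, 10.45, 10.38, 10.47 and 10.40, and the 6 of 10 mg/kg ran from 10.46 to 10.64 with a median of 10.60. The doses overlapped by the lowest 10 mg/kg array (difference -0.156, unadjusted p 0.0019, adjusted p 0.566). The dim Camk2d 1371263_a_at was above vehicle by 0.31 (0.049 to 0.57) at 10 mg/kg (unadjusted p 0.0208, adjusted p 0.998) and by 0.116 (-0.143 to 0.38) at 80 mg/kg.

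**Figure D4:**
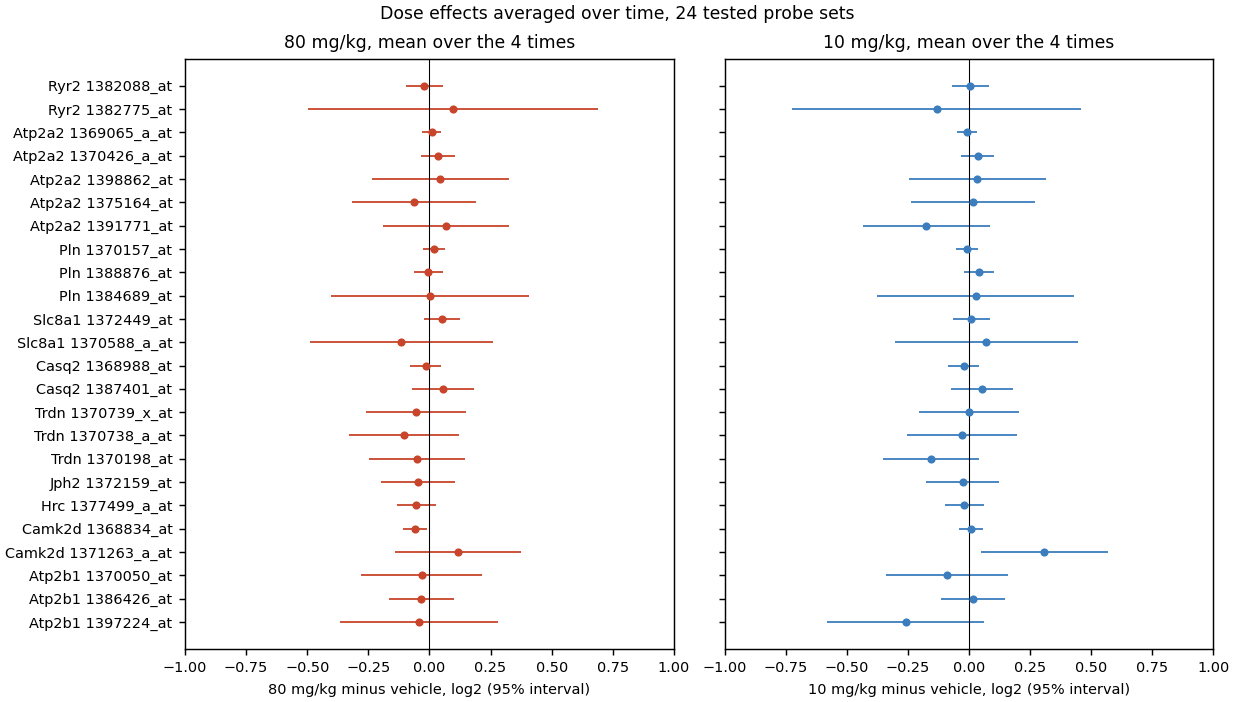
Difference from vehicle averaged over the 4 times (x axis, log2) with its 95% interval, for the 24 tested probe sets at 80 mg/kg (left) and 10 mg/kg (right). Most intervals cross 0; the exceptions, before adjustment over all probe sets, are Camk2d 1368834_at at 80 mg/kg and Camk2d 1371263_a_at at 10 mg/kg.

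Levels were also compared between times, and in vehicle the share of member probe sets called was close to that of all probe sets. In vehicle rats the level differed between times for 2 of the 24 probe sets (Slc8a1 1372449_at and Jph2 1372159_at), against 8.05% of all probe sets called in limma, and 10 of 24 passed an unadjusted p of 0.05 against 25.6% of all. Slc8a1 had vehicle means of 11.01, 11.07, 11.12 and 10.79 at 6, 24, 168 and 336 h (adjusted p 0.0117). Jph2 had means of 10.90, 11.19, 10.85 and 11.44 (adjusted p 0.0241). The count fell to 0 without vehicle 336 h replicate 3 or replicate 5 and to 1 without replicate 4, and rose to 4, 6 and 5 without vehicle 6 h replicate 3, 24 h replicate 2 and 168 h replicate 3. The share of all probe sets called was not taken in those fits, so these shifts cannot be set against it.

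Because 336 h stood apart, this time was set against the mean of the earlier times within each dose, a comparison added after the levels were seen. It called 4 member probe sets in vehicle, 5 at 10 mg/kg and 6 at 80 mg/kg, against 12.4%, 14.6% and 9.83% of all probe sets. Member counts at an unadjusted p under 0.05 were 10, 10 and 8, against 26.9%, 27.9% and 23.9%. Slc8a1 and Jph2 were called at all 3 doses, whose arrays are separate. The counts moved when single arrays were left out, where again the share of all probe sets called was not taken. In vehicle 2 were called without 336 h replicate 4 or 6. At 10 mg/kg 2 were called without 336 h replicate 2 and 3 without replicate 1, 3 or 5. At 80 mg/kg 2 were called without 336 h replicate 2 or 5 and 3 without replicate 1, 3 or 4.

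The exchanger Slc8a1 fell at 336 h, with exceptions at 10 mg/kg on the signals as deposited (0.29) and blocked by array cluster (0.028). Its vehicle arrays at 336 h read 10.90, 10.69, 10.95, 10.69 and 10.75, the 10 mg/kg arrays ran from 10.76 to 10.97 with a median of 10.89, and the 80 mg/kg arrays read 10.98, 10.75, 10.74, 10.88 and 10.93. The 46 earlier arrays ran from 10.82 to 11.28, so the late arrays lie at the low edge and overlap them. The differences were -0.27 (adjusted p 0.00226), -0.17 (adjusted p 0.0351) and -0.25 (adjusted p 0.00467) at vehicle, 10 and 80 mg/kg. On the signals as deposited the median of all probe sets itself stood 0.122, 0.45 and 0.198 higher at 336 h at vehicle, 10 and 80 mg/kg. Relative to that median Slc8a1 differed there by -0.33, -0.167 and -0.215. Leaving out any single array kept the calls in vehicle and at 80 mg/kg (adjusted p up to 0.0169 and 0.0279), while at 10 mg/kg the call was lost without any of 336 h replicates 1 to 5, 6 h replicate 4 or 5 or 24 h replicate 1 (adjusted p up to 0.113). The dim Slc8a1 1370588_a_at was not called at any dose. In vehicle it was higher at 336 h (0.239), while over all doses its 16 late arrays had a median of 6.05 against 6.18 in the 46 earlier ones.

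The junction protein Jph2 rose. Its vehicle arrays at 336 h read 11.32, 11.52, 11.47, 11.50 and 11.38, the 10 mg/kg arrays ran from 11.27 to 11.60 with a median of 11.36, and the 80 mg/kg arrays read 11.26, 11.42, 11.36, 11.39 and 11.33. The earlier 46 arrays ran from 10.44 to 11.52 with a median of 10.95, so some earlier arrays reach the late range. The differences were 0.46 (adjusted p 0.0104), 0.44 (adjusted p 0.00731) and 0.41 (adjusted p 0.0261), positive under every scaling tried. Single arrays left out ended the call only at 80 mg/kg, without 336 h replicate 2, 3, 4 or 5 (adjusted p 0.0532 to 0.0695).

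**Figure D5:**
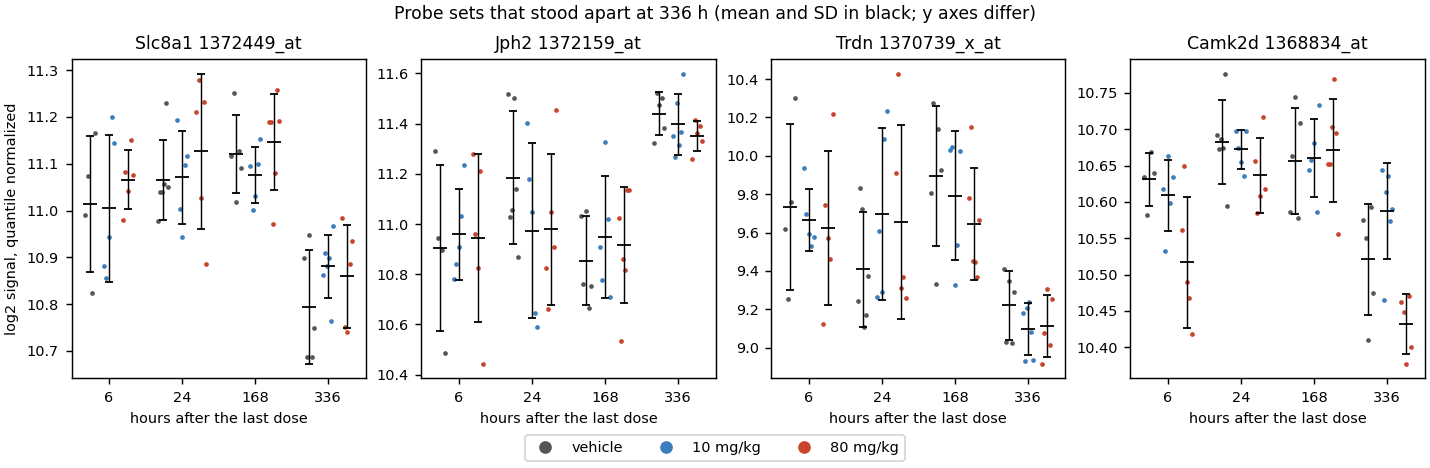
Log2 level of 4 probe sets on every array by hours after the last dose, coloured by dose, with group mean and SD in black. At 336 h Slc8a1, Trdn and Camk2d have lower means and Jph2 higher means than earlier; on the signals as deposited, where all probe sets shifted up by a median of 0.45 at 10 mg/kg and 0.198 at 80 mg/kg, Slc8a1 at 10 mg/kg and Camk2d at both doses are above 0 but below that median.

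Fewer doses called the other members. Trdn 1370739_x_at was lower by 0.62 at 10 mg/kg (adjusted p 0.00494) and by 0.53 at 80 mg/kg (adjusted p 0.0324), with a vehicle difference of -0.46 (adjusted p 0.0605). Camk2d 1368834_at fell in vehicle (-0.136, adjusted p 0.0218) and at 80 mg/kg (-0.177, adjusted p 0.0034; 0.073 as deposited, -0.125 relative to the median of all probe sets), with -0.06 at 10 mg/kg (adjusted p 0.308). Atp2a2 1398862_at rose in vehicle (0.73, adjusted p 0.0309) and at 10 mg/kg (0.62, adjusted p 0.0434), Pln 1388876_at fell at 10 mg/kg (-0.173, adjusted p 0.00788; 0.127 as deposited, -0.33 relative to that median), and at 80 mg/kg Pln 1384689_at rose (0.98, adjusted p 0.0462) and Ryr2 1382088_at fell (-0.199, adjusted p 0.0315; 0.009 as deposited, -0.189 relative to it). The other Ryr2 probe set, 1382775_at, was higher at 336 h (0.905 in vehicle and 1.118 at 10 mg/kg) and was not called at any dose. The bright Atp2a2 1369065_a_at gave 0.012, 0.045 and 0.027 at the 3 doses, none called, and its sign depended on the scaling. At 10 mg/kg it gave 0.161 as deposited (-0.292 relative to the median of all probe sets) and -0.278 with a common median. In vehicle these values were 0.08 (-0.042) and -0.077. Of the calls in this paragraph, those of Trdn at 10 mg/kg and Camk2d at 80 mg/kg held without any single array. Each of the others was lost without at least 1 array of 336 h, with adjusted p up to 0.151. These 336 h differences themselves were not compared between doses. In limma's F test for a dose effect that differs between times, the members' adjusted p was 0.348 or above at 80 mg/kg and 0.984 or above at 10 mg/kg.

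Every 336 h array lies in the second cluster, which holds only 5 earlier arrays. Set against those 5, the 16 late arrays differed by -0.122 for Slc8a1 (means 10.85 and 10.97), by 0.30 for Jph2 (11.40 ± 0.096 and 11.09 ± 0.22, SD) and by -0.148 for Camk2d 1368834_at. Blocked by cluster, no member was called at any dose, against 0.0644%, 0.166% and 0.365% of all probe sets at vehicle, 10 and 80 mg/kg; Slc8a1 in vehicle then differed by -0.077 (adjusted p 0.894) and Jph2 by 0.29 (adjusted p 0.653), and Atp2a2 1398862_at turned to -0.46. Time and cluster cannot be told apart with these arrays. Summed marker signals of other cell types were also set side by side, the 16 arrays of 336 h against the 46 earlier ones. That of red blood cells (2 of 3 listed genes on the array, both above the filter) ran from 6144 to 10230 against 8297 to 13830, with group medians of 6981 to 8722 against 9543 to 12760. Smooth muscle (4 of 4) ran from 986.7 to 1580 against 542.5 to 1542, and atrial myocytes (4 of 5) from 609.7 to 4479 against 938.5 to 24620. Skeletal muscle (5 of 6) ran from 2972 to 13100 against 5830 to 14920, fibroblasts (5 of 5) from 13070 to 17730 against 14040 to 20730 and endothelium (4 of 5) from 2387 to 3549 against 2107 to 3065. The ranges overlap for every one of these lists. Their part in the 336 h differences was not tested.

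The promoters of Ryr2, Slc8a1 and Jph2 are shown from RefSeq (GRCr8), 250 bases before to 50 after the start. Slc8a1 and Jph2 were chosen since both were called at 336 h at every dose, without a block for cluster. Ryr2 was the only member with the nuclear receptor half-site AGGTCA. All 10 members matched a promoter entry. Capitals mark AGGTCA and the E-box CANNTG, searched on both strands.
Ryr2 (chr17:63081277-63081576, plus strand): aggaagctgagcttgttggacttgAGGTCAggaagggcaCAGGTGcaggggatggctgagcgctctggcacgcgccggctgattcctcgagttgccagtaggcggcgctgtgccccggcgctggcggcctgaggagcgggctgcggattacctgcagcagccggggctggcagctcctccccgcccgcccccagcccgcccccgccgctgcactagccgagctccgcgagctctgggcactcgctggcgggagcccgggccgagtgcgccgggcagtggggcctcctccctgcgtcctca
Slc8a1 (chr6:19023309-19023608, plus strand): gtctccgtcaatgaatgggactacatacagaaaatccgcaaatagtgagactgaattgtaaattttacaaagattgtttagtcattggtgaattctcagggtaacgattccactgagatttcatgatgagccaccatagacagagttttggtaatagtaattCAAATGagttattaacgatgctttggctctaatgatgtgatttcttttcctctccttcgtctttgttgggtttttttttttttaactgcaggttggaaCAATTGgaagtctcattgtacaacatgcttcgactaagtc
Jph2 (chr3:172477872-172478171, minus strand): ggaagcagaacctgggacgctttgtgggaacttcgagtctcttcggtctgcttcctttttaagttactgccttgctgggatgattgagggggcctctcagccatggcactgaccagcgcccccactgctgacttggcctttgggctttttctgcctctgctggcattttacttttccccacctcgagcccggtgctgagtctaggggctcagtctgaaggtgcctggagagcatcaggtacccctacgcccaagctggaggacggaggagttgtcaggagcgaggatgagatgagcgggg

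The full PPAR-RXR motif, AGGTCA repeated in the same direction with 1 base between, was found in 0 of the 10 promoters and in 0.0538% of the 33469 rat promoters of this length, and the half-site AGGTCA in 1 of 10 against 16.2%. The MEF2 motif (CTA, any 4 bases, TAG), the GATA motif AGATAA and the MCAT motif CATTCC were in 0 of 10 each, against 3.84%, 11.6% and 14.2%. The E-box was in 6 of 10 against 72.1%. These are matches of letters in this window only.

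The wider calcium machinery was taken from a list of 61 genes, of which 55 were on the array and 50 above the filter. None was called for either dose at any time (limma). At an unadjusted p under 0.05 there were 5, 5, 0 and 4 for 80 mg/kg, against 6.65%, 11.1%, 5.44% and 6.97% of all probe sets, and 2, 3, 0 and 2 for 10 mg/kg, against 6.42%, 5.84%, 3.86% and 3.63%. At 336 h against the earlier times 9 were called in vehicle (6 higher, 3 lower), 12 at 10 mg/kg (7 higher, 5 lower) and 10 at 80 mg/kg (5 higher, 5 lower), against 12.4%, 14.6% and 9.83% of all probe sets. Asph, Camk2g, Prkaca and Orai1 were higher and Ppp1r3a and Ppp3ca lower at all 3 doses. For these genes too, time and cluster cannot be told apart, since every 336 h array lies in the second cluster. Blocked by cluster, 0.0644%, 0.166% and 0.365% of all probe sets were called at vehicle, 10 and 80 mg/kg. The wider list was not followed under that block.

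In vehicle rats 7 of the 50 differed between times (Asph, Ppp1cb, Ppp1r3a, Ppp3ca, Rcan1, Prkaca and Orai1), against 8.05% of all probe sets. At 336 h in vehicle, Prkaca, the catalytic subunit of protein kinase A that phosphorylates phospholamban, stood at 10.15 against 9.36 (difference 0.79, adjusted p 0.00234). Asph, whose locus also encodes junctin, a partner of triadin, stood at 10.73 against 10.21 (0.52, adjusted p 0.00177), and Orai1, a store-operated calcium channel, at 8.14 against 7.53 (0.61, adjusted p 0.00214). Ppp3ca, the catalytic subunit of calcineurin, fell by 0.31 (adjusted p 0.0014) and Ppp1r3a, a glycogen-targeting subunit of protein phosphatase 1, fell by 0.40 (adjusted p 0.00174). Rcan1, a regulator of calcineurin, rose by 0.51 at 10 mg/kg (adjusted p 0.00134) and 0.61 at 80 mg/kg (adjusted p 0.00066). Its vehicle difference was 0.23 (adjusted p 0.214), with vehicle means of 10.86 at 168 h and 10.73 at 336 h. None of the 50 was called in limma's F test for a dose effect that differs between times. The adjusted p was 0.602 or above at 80 mg/kg and 0.984 or above at 10 mg/kg. The 336 h difference by itself was not compared between doses.

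Over the 62 arrays the genes whose level followed a member most closely were given by Pearson's r for its brightest probe set, as a description of arrays that share labelling and scale. Trdn followed Emc2 (0.92) and Srp9 (0.91), Jph2 followed Rnf187 (0.92) and Hspb7 (0.89), and Atp2b1 followed Akap13 and Phip (both 0.87). Ryr2 followed Ttn, the giant sarcomere protein (0.71), and Dcaf7 (0.71). Atp2a2 was nearest to Aldoa (0.75) and C2cd2l (0.73), and Slc8a1 to Rbm25 (0.75) and Nexn (0.74). The nearest genes were looser for Hrc (Ltn1 0.63, Ecpas 0.60), Camk2d (Epm2aip1 0.60, Ttn 0.57), Casq2 (Uqcrh 0.59, Rps3a 0.57) and Pln (Rnmt 0.54, Myoz2 0.54).

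The 12 group means of the brightest probe sets kept close ranks. For Slc8a1, Ryr2, Casq2, Trdn and Hrc the lowest 3 groups were those of 336 h, and for Jph2 the highest 3. The widest step between neighbouring groups was 0.124 for Slc8a1 and 0.085 for Camk2d, above their within-group SDs of 0.108 and 0.061. In the other 8 genes no step exceeded the within-group SD: 0.014 against 0.039 for Atp2a2, 0.033 against 0.053 for Pln, and 0.206 against 0.239 for Jph2.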

How the data were processed

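Expression of cardiac muscle RNA was measured on an Affymetrix rat array, 1 array per sample. Each deposited value is a linear intensity for 1 probe set. GCOS and MAS5 are named in the submitters' processing notes; their settings are not given in the sources used here. Of 31099 probe sets 57 controls were left out. Signals were put on a log2 scale, quantile normalized between arrays and filtered at the 40th percentile of mean level. A 12-group linear model was fitted to all 62 arrays with limma 3.58.1 (R 4.3.3), with Benjamini-Hochberg adjustment within each comparison (18625 probe sets) and a threshold of 0.05. The number of arrays limits the precision. No 2 arrays were identical. Every member is named whatever its p, and genes of the wider list where called. The members and lists were chosen with earlier results of these data known. The tests were tried on simulated data. Alternatives were other scalings, no filter, blocks, weights, a hexokinase covariate, and leaving out arrays.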

Additional observations from a re-analysis of the deposited data

Results flagged for a closer look

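In 19 of 288 probe set groups of 4 to 6 arrays (6.6%), 1 array stood further from the others than Dixon's 95% limit allows; chance flags about 1 in 20. Values are log2 levels. Ryr2 1382775_at was flagged 3 times, in vehicle 24 h replicate 2 (10.56, the others up to 8.54), vehicle 168 h replicate 1 (7.99, the others 10.15 to 10.46) and 80 mg/kg 336 h replicate 3 (10.84). The first of these was the only vehicle array of 24 h outside the third array cluster, and the second the only vehicle array of 168 h inside it; Atp2b1 1370050_at was low on that second array too (7.62, the others 8.55 to 8.90).

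The 10 mg/kg 336 h replicate 2 was flagged for 4 probe sets, low for Atp2a2 1375164_at (4.62) and Pln 1388876_at (12.96) and high for Pln 1370157_at (13.96) and Casq2 1387401_at (11.96). For Pln the 2 probe sets of this array went in opposite directions.

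Casq2 1368988_at was low in 10 mg/kg 6 h replicate 3 (12.27), vehicle 168 h replicate 3 (12.34) and vehicle 336 h replicate 6 (12.23). Atp2a2 1369065_a_at was low in 10 mg/kg 24 h replicate 6 (13.83) and vehicle 336 h replicate 5 (13.89), and Atp2a2 1398862_at high in 80 mg/kg 168 h replicate 3 (8.83). Slc8a1 1372449_at was high in vehicle 24 h replicate 5 (11.23) and Hrc 1377499_a_at in 80 mg/kg 6 h replicate 2 (11.99). Trdn 1370198_at was low in 80 mg/kg 24 h replicate 6 (6.29), Atp2b1 1386426_at in 80 mg/kg 336 h replicate 2 (6.97) and Atp2b1 1397224_at in vehicle 6 h replicate 1 (4.62).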

How the results depend on the processing

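No member was called for any dose effect, dose difference or effect that differs between times under any alternative scaling, filter, block, weighting or set of arrays, nor without any single array (0 to 0). The time counts are given with the share of all probe sets called, except without single arrays, where that share was not taken. For vehicle levels that differ between times (2; 8.05%) the count was 0 on the signals as deposited (0.0537%), 1 with a common median (5.53%), 0 blocked by cluster (0.285%), 9 with array weights (19.2%), 1 without the high-Myl7 arrays (5.06%) and 0 to 6 without single arrays. For 336 h against earlier times in vehicle (4; 12.4%) it was 0 as deposited (0.0752%), 2 with no filter (5.3%), 0 blocked by cluster (0.0644%), 7 with weights (21.0%) and 2 to 5 without single arrays. At 10 mg/kg (5; 14.6%) it was 9 as deposited (37.6%), 2 with a common median (7.43%), 3 with no filter (6.77%), 0 blocked by cluster (0.166%), 9 with weights (20.7%), 2 without the high-Myl7 arrays (10.1%) and 2 to 7 without single arrays. At 80 mg/kg (6; 9.83%) it was 0 as deposited (0.113%), 0 with a common median (4.54%), 3 with no filter (4.22%), 0 blocked by cluster (0.365%) and 2 to 6 without single arrays. The cause was not tested.

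Among the called time differences, signs turned as follows. Blocked by cluster, Atp2a2 1398862_at gave -0.46 in vehicle and -0.59 at 10 mg/kg, and Slc8a1 1372449_at 0.028 at 10 mg/kg. On the signals as deposited, Pln 1388876_at gave 0.127 and Slc8a1 0.29 at 10 mg/kg, where the median of all probe sets was 0.45, and Ryr2 1382088_at 0.009 and Camk2d 1368834_at 0.073 at 80 mg/kg, where it was 0.198; all 4 stayed below that median. Whether replicate numbers pair the samples is not in the labels. Correlations of same-numbered arrays ran from -0.26 to 0.34. For 80 mg/kg against vehicle, 3 of 5 shared numbers matched best with their own at 168 h and 0 of 4 at 336 h. The replicate block gave 3, 5, 6 and 6 calls in the 4 time comparisons, against 9.4%, 13.2%, 15.1% and 8.77% of all probe sets. It gave 0 member calls in all others and changed no count by over 1.5 times. Probe sets near the top of the scale and dim ones limit what can be detected.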
